A study of Mus musculus with 8 samples.

Results

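Mast cells are tissue-resident immune cells that lie around vessels and nerves in the skin and store histamine, heparin and proteases in granules. They release this content when allergen crosslinks IgE bound to the high-affinity receptor, or when peptides and drugs act on the receptor Mrgprb2, and the released mediators are well known for causing itch. Their survival in tissue depends on the receptor Kit and its ligand, stem cell factor. The genes described here are 10 that mark the mast cells of mouse connective tissue: Fcer1a and Ms4a2, the α and β chains of the high-affinity IgE receptor, Kit, Mrgprb2, Hdc, the enzyme that makes histamine, and the granule proteases Cpa3, Cma1, Mcpt4, Tpsb2 and Tpsab1. They were chosen from a larger set with results of the comparison below already known, so their own values are given as a description, without a test. Of the 10 genes, 9 had a row among the 18901 genes of the table. Tpsab1, listed as a transcribed pseudogene in the RefSeq annotation of GRCm38.p6, was not analysed here.

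The RNA came from whole cheek skin of 8 female mice aged 7 weeks, each of which had received 10 µg of the itch peptide BNP (B-type natriuretic peptide) into the skin of the left cheek. The mice were recorded for 30 min and the skin was taken 5 h after the recording. In 4 mice (TBX20fl/fl;K14-Cre) Cre under the keratin 14 promoter removed exons 2 and 3 of the transcription factor gene Tbx20 in keratinocytes, and 4 floxed littermates without Cre (TBX20fl/fl) were the controls. Every mouse carried the floxed alleles and had been injected with BNP, so the comparison is between genotypes under BNP. Vehicle-treated skin and mice with Cre alone were not analysed here. Whole skin mixes mast cells with keratinocytes, fibroblasts, muscle, fat and other immune cells. Values are FPKM (fragments mapped to a gene, scaled by transcript length and by library size), which can be compared between genes, and log2 fold changes of TBX20fl/fl;K14-Cre over TBX20fl/fl fitted to the estimated counts with edgeR, each with its standard error (SE).

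Total counts were 16056282 to 19880654 per mouse. TBX20fl/fl mouse 2 stood apart from the other 7. Its median rank correlation with the others was 0.844, against 0.957 to 0.984 in the rest, its TMM scaling factor was 0.735 against 1.01 to 1.07, and its genes deviated from the mean of the mice with transcript length (Spearman's rho -0.782, over genes), short transcripts being high. TBX20fl/fl mouse 3 showed the same trend less steeply (-0.550), and the other 6 mice lay between -0.0558 and 0.466. Since 5 of the genes described here (Fcer1a, Mcpt4, Cma1, Tpsb2 and Cpa3) have short transcripts of 0.941 to 1.35 kb, the fold change of each member is also given without TBX20fl/fl mouse 2 and after this length trend had been removed from every mouse. As a check of the labels, Tbx20 had at most 3.01 counts in any of the 8 mice (2.09 where it was deleted), too few for the deletion to be visible in these libraries. Npr1, a receptor for BNP, had a log2 fold change of 0.51 (SE 0.31, edgeR adjusted p = 0.502), or 0.28 without TBX20fl/fl mouse 2. The paper reports lower Npr1 by RT-qPCR in BNP-injected skin of TBX20fl/fl;K14-Cre mice, a direction not seen here. Neither gene therefore served to check the labels.

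Mast cell gene activity is known to depend on GATA factors and on MITF. The 250 bases upstream of the annotated start are shown for the 4 genes whose FPKM did not overlap between the genotypes, because these are the genes that the comparison turns on. Sequences are from RefSeq on GRCm38.p6, read 5′ to 3′ on the strand of the gene, and all 4 genes lie on the minus strand. The windows are chr1:173227230-173227479 for Fcer1a, chr19:11623720-11623969 for Ms4a2, chr3:20242182-20242431 for Cpa3 and chr14:55944676-55944925 for Cma1. Capitals mark each match, on either strand, to the GATA motif (AGATAA or AGATAG or TGATAA or TGATAG) or to the E-box bound by MITF (CACATG, its reverse complement CATGTG or CACGTG).
Fcer1a: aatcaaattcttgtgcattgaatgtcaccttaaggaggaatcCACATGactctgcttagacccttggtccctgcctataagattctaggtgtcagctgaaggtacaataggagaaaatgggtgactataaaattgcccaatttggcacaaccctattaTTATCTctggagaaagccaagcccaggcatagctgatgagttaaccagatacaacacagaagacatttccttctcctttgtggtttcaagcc
Ms4a2: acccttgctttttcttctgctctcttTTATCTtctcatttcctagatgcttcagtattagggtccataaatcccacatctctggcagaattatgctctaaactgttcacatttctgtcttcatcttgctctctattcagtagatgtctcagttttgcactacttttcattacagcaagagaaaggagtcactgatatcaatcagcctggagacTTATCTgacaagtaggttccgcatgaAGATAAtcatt
Cpa3: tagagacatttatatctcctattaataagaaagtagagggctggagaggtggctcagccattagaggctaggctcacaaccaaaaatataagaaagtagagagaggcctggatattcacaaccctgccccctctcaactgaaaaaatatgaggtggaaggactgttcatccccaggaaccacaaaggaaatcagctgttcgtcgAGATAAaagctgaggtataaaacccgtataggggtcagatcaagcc
Cma1: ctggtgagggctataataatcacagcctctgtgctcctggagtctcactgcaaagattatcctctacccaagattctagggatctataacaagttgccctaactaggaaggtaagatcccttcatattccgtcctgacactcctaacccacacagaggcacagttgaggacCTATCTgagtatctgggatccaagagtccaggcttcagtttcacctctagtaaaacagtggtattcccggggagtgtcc
The Ms4a2 window held 3 GATA matches, 224, 37 and 11 bases before the start, and the Cpa3, Cma1 and Fcer1a windows held 1 each, 46, 79 and 92 bases before it. The starts used for Ms4a2, Cpa3 and Fcer1a lie inside the gene spans given below, so the last bases of these windows are within the gene. The Ms4a2 matches at 37 and 11 bases fall in that overlap. The E-box match of Fcer1a lay 208 bases before the start. Fcer1a was the only matched member whose first bases from the annotated start were not found in a GENCODE transcript of the gene. Where in a transcript these bases lay was not examined for the others. Of the 8 members with a promoter in the RefSeq table, 7 held a GATA match (all but Kit) and 1 an E-box match, and over all 32851 promoters the shares were 26.5% and 17.6%. A match is a run of letters and says nothing of binding in this skin.

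Most mast cell genes had lower values in TBX20fl/fl;K14-Cre than in TBX20fl/fl skin. The fitted log2 fold change was below 0 for 8 of the 9 genes, Kit being the exception, with a median of -0.75 against 0.03 over all 17124 genes tested. In 4 genes (Fcer1a, Ms4a2, Cpa3 and Cma1) the FPKM of every TBX20fl/fl;K14-Cre mouse lay below that of every TBX20fl/fl mouse, a pattern found in 1.87% of the genes tested. The members were chosen by this same contrast, so nothing is read from the difference between these shares. No gene of the 17124, member or not, had an edgeR adjusted p under 0.05 (0%, lowest adjusted p = 0.498), although 1431 had an unadjusted p under 0.05. DESeq2 called 10 genes and limma 0, and none of them was a member. Without TBX20fl/fl mouse 2 the members' median was -0.37, and after removal of the length trend it was -0.51 with 6 of the 9 genes below 0. The same 4 genes had ranges that did not overlap in each of these views, in which 2.53% and 2.48% of all genes did so. In whole skin, fewer mast cells and less RNA per mast cell cannot be told apart.

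**Figure D1:**
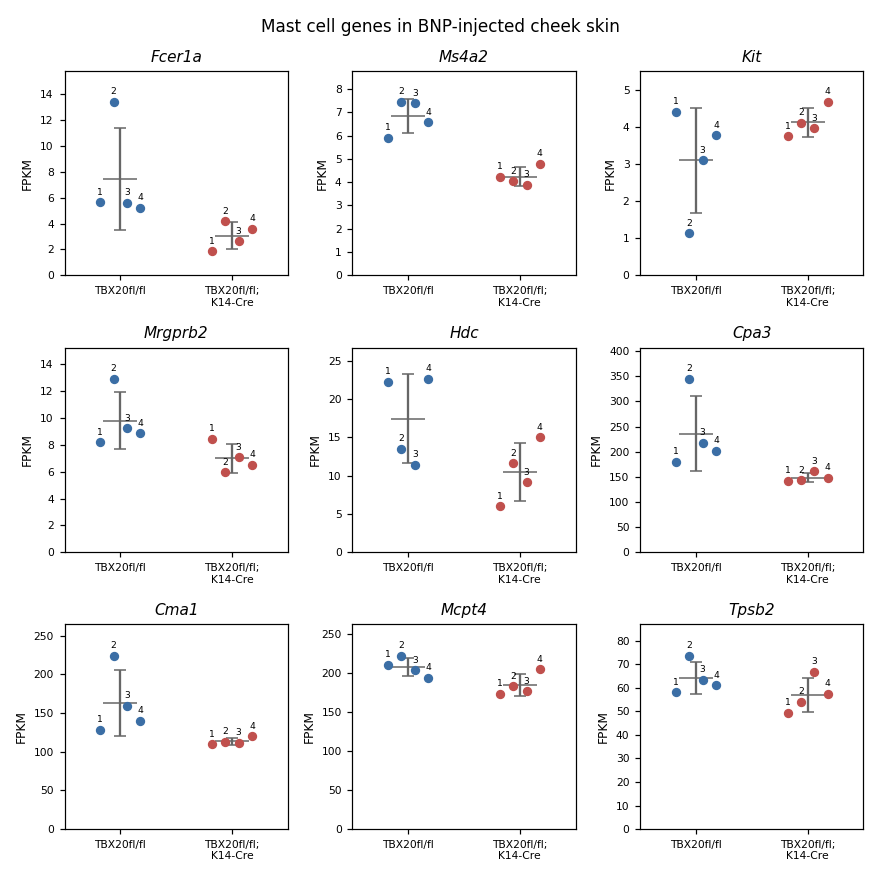
FPKM of each mast cell gene in the 4 TBX20fl/fl and the 4 TBX20fl/fl;K14-Cre mice, 1 panel per gene, each axis starting at 0. Points are mice labelled with their number, the long dash is the mean and the bar 1 SD. The groups are separate for Fcer1a, Ms4a2, Cpa3 and Cma1 and overlap for the other 5 genes, and TBX20fl/fl mouse 2 is the highest point for 7 genes and the lowest for Kit.

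The IgE receptor is assembled from an α chain that binds IgE, a β chain that amplifies the signal and a pair of γ chains. Fcer1a (chr1:173221269-173227232), the α chain, had FPKM of 1.86, 4.17, 2.62 and 3.61 in TBX20fl/fl;K14-Cre mice 1 to 4 and of 5.65, 13.39, 5.58 and 5.24 in TBX20fl/fl mice 1 to 4. The groups did not overlap, and TBX20fl/fl mouse 2 was far above all others. The means were 3.07 ± 1.03 (SD, n = 4) and 7.47 ± 3.95 (SD, n = 4), the second of which was 5.49 ± 0.219 over the 3 other TBX20fl/fl mice. The log2 fold change of -1.56 (SE 0.47) came to -0.89 without TBX20fl/fl mouse 2 and to -0.96 after the length trend was removed. Fcer1a rested on few counts, 35.0 to 79.7 per TBX20fl/fl;K14-Cre mouse and at most 210.0 in a TBX20fl/fl mouse.

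Ms4a2 (chr19:11615517-11623790), the β chain, had FPKM of 4.24, 4.04, 3.89 and 4.80 in TBX20fl/fl;K14-Cre mice and of 5.91, 7.44, 7.39 and 6.57 in TBX20fl/fl mice. The groups did not overlap, and no single mouse stood far from its group. Its log2 fold change was -0.87 (SE 0.20), -0.68 without TBX20fl/fl mouse 2 and -0.87 after removal of the length trend, so that this gene, with a transcript of 2.69 kb, was the least moved by that correction. The γ chain, Fcer1g, is shared with other Fc receptors on myeloid cells and was no member. It had FPKM of 81.4 to 128.7 in TBX20fl/fl;K14-Cre and 120.2 to 219.0 in TBX20fl/fl skin, with a log2 fold change of -0.98 (SE 0.28, edgeR adjusted p = 0.498), which was -0.66 without TBX20fl/fl mouse 2 and -0.35 after removal of the length trend, its transcript being 0.609 kb long.

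Kit (chr5:75574987-75656722), the receptor for stem cell factor, went the other way. Its FPKM was 3.75, 4.11, 3.97 and 4.68 in TBX20fl/fl;K14-Cre mice and 4.41, 1.14, 3.11 and 3.78 in TBX20fl/fl mice. The groups overlapped, and the low mean of the controls came mainly from mouse 2. The log2 fold change was 0.31 (SE 0.27), 0.09 without that mouse and 0.08 after removal of the length trend. Kit has the longest transcript of the members, 5.12 kb. Melanocytes also express Kit, and all 8 melanocyte markers had a fitted fold change above 0, with summed FPKM of 7.38 to 71.5 in TBX20fl/fl;K14-Cre and 7.28 to 14.2 in TBX20fl/fl skin. The high end belonged to TBX20fl/fl;K14-Cre mouse 2, in which Dct, a pigment enzyme, reached 25.3 FPKM against 2.29 to 5.71 in the other mice. Without that mouse 4 of the 8 markers were below 0 and their median was 0.05. It was not the highest for Kit, and the part of melanocytes in the Kit values was not tested.

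Mrgprb2 (chr7:48550965-48558086), the receptor through which peptides and basic drugs degranulate mouse mast cells without IgE, had FPKM of 8.44, 5.94, 7.07 and 6.50 in TBX20fl/fl;K14-Cre mice and of 8.20, 12.92, 9.24 and 8.86 in TBX20fl/fl mice. The ranges overlapped by 1 mouse of each genotype. Its log2 fold change was -0.70 (SE 0.27), -0.37 without TBX20fl/fl mouse 2 and -0.55 after removal of the length trend.

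Hdc (chr2:126593659-126624025), histidine decarboxylase, had FPKM of 6.01, 11.60, 9.12 and 15.00 in TBX20fl/fl;K14-Cre mice and of 22.23, 13.51, 11.42 and 22.64 in TBX20fl/fl mice. The ranges overlapped, but within each mouse number the TBX20fl/fl;K14-Cre mouse was the lower. The labels do not state that mice of the same number are paired. The TBX20fl/fl values fell into a high pair, mice 1 and 4, and a low pair, mice 2 and 3. The log2 fold change was -0.90 (SE 0.29) and stayed between -0.84 and -0.91 in the blocked fit, without TBX20fl/fl mouse 2 and after removal of the length trend. Neutrophils can also express Hdc, and all 7 neutrophil markers had fold changes below 0 with a median of -1.67 (-1.45 without TBX20fl/fl mouse 2, -1.21 after removal of the length trend), their summed FPKM being 106.4 to 291.4 in TBX20fl/fl;K14-Cre and 287.6 to 965.3 in TBX20fl/fl skin. This median was the value of a marker with at most 8.75 counts in any mouse. The 4 markers of highest level had -2.09 (S100a9), -2.10 (S100a8), -0.92 (Retnlg) and -0.51 (Csf3r). None of the 7 passed the edgeR test (lowest adjusted p = 0.498), and the part of neutrophils in the Hdc values was not tested.

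The granule proteases were by far the most abundant members and made up 92.6% to 95.1% of the summed FPKM of the 9 genes in every mouse. Cpa3 (chr3:20215616-20242209), carboxypeptidase A3, had FPKM of 141.9, 143.0, 160.9 and 148.0 in TBX20fl/fl;K14-Cre mice and of 179.7, 344.9, 217.8 and 201.4 in TBX20fl/fl mice. Cma1 (chr14:55941451-55944675), a chymase, had FPKM of 109.5, 112.6, 111.7 and 119.6 against 127.9, 224.0, 159.2 and 139.8. Neither gene overlapped between the genotypes, the TBX20fl/fl;K14-Cre mice lay close together, and TBX20fl/fl mouse 2 was far the highest. The log2 fold changes were -0.92 (SE 0.31) for Cpa3 and -0.75 (SE 0.28) for Cma1, which came to -0.47 and -0.37 without that mouse, and to -0.51 and -0.26 after removal of the length trend.

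Mcpt4 (chr14:56059744-56062310), the other main chymase of connective tissue mast cells, had FPKM of 173.7, 183.5, 177.0 and 205.0 in TBX20fl/fl;K14-Cre mice and of 211.2, 222.7, 203.8 and 194.3 in TBX20fl/fl mice. Tpsb2 (chr17:25366308-25368096), a tryptase, had FPKM of 49.4, 54.2, 66.9 and 57.5 against 58.1, 73.7, 63.5 and 61.1. Both genes overlapped between the genotypes. Their log2 fold changes were -0.36 (SE 0.18) and -0.38 (SE 0.21), -0.18 and -0.15 without TBX20fl/fl mouse 2, and turned to 0.08 and 0.06 once the length trend was removed. Among 50-base stretches of the GENCODE M21 transcripts, 5.48% of those of Mcpt4 were shared with other genes (mostly Cma2), 5.38% of those of Cma1 and 2.10% of those of Ms4a2, so that a small part of their reads could have been split between genes, while Tpsb2, Cpa3, Fcer1a, Kit and Mrgprb2 shared none.

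**Figure D2:**
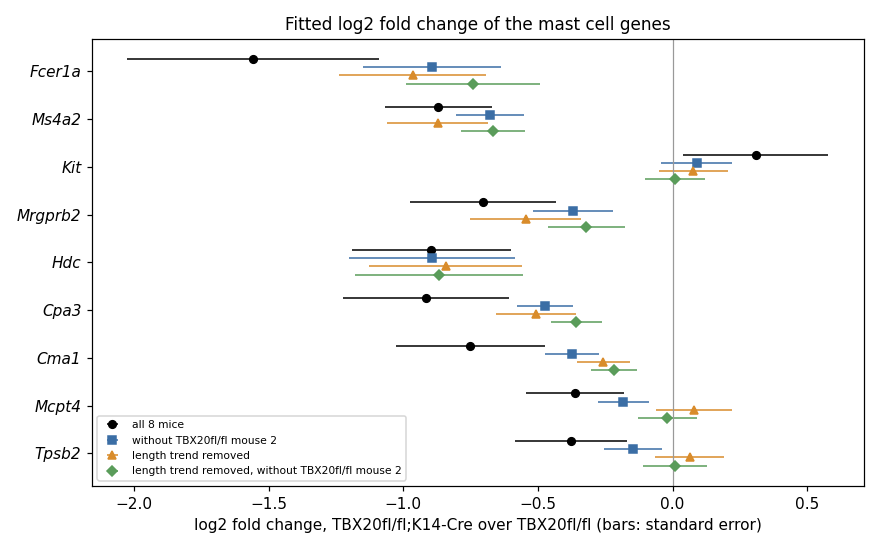
Fitted log2 fold change (horizontal axis) of each mast cell gene, TBX20fl/fl;K14-Cre over TBX20fl/fl, with bars of 1 standard error, in the fit of all 8 mice (black circles), without TBX20fl/fl mouse 2 (squares), after removal of the length trend (triangles) and with both (diamonds). Fcer1a, Ms4a2, Hdc, Mrgprb2, Cpa3 and Cma1 stay below 0 in all 4 fits, whereas Mcpt4 and Tpsb2 lie at 0.08 and 0.06 when the length trend is removed and at -0.02 and 0.01 with both. Kit lies at 0.31 in the fit of all mice and between 0.01 and 0.09 in the others.

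By level, Mcpt4 (mean over 8 mice 196.4 FPKM), Cpa3 (192.2) and Cma1 (138.1) came first, then Tpsb2 (60.5), Hdc (13.9), Mrgprb2, Ms4a2 (5.54), Fcer1a (5.27) and Kit (3.62). Between neighbours in this order, the step from Cma1 to Tpsb2 and that from Tpsb2 to Hdc exceeded the spread between mice, and the ranges of the other neighbours overlapped. Mcpt4 was above Cpa3 in each TBX20fl/fl;K14-Cre mouse. In TBX20fl/fl skin Cpa3 had the higher mean (235.9 and 208.0), but not without mouse 2 (199.6 and 203.1). Fcer1a was last in TBX20fl/fl;K14-Cre skin (mean 3.07 FPKM, with Kit at 4.13) but not in TBX20fl/fl skin. Its mean there lay above that of Ms4a2 (7.47 and 6.83) through mouse 2 alone, and without it was below (5.49 and 6.62).

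Where transcripts come from mast cells alone, the total mast cell RNA in a piece of skin divides out of ratios between members within a mouse. Such ratios then show whether the genes kept their proportions. Basophils share Fcer1a and Cpa3, and their part in the ratios was not tested. These ratios were picked after the values had been seen and carry no test. Fcer1a came to 1.07%, 2.27%, 1.48% and 1.76% of Mcpt4 in the 4 TBX20fl/fl;K14-Cre animals, and to 2.67%, 6.01%, 2.74% and 2.70% in the controls, without overlap. These transcripts have nearly the same length, 0.975 and 0.941 kb. Cpa3 was 241% to 287% of Tpsb2 in TBX20fl/fl;K14-Cre and 309% to 468% in TBX20fl/fl skin, again without overlap. Cma1 was 58.3% to 63.1% of Mcpt4 against 60.5% to 100.6%, which overlapped. As a share of the summed FPKM of the 9 genes, Tpsb2 was higher in TBX20fl/fl;K14-Cre skin (9.90% to 12.3% against 8.06% to 9.49%). The sum itself was 498.7 to 564.7 FPKM in TBX20fl/fl;K14-Cre and 623.3 to 913.7 in TBX20fl/fl skin. These shares, too, are from FPKM with no correction for the length trend.

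**Figure D3:**
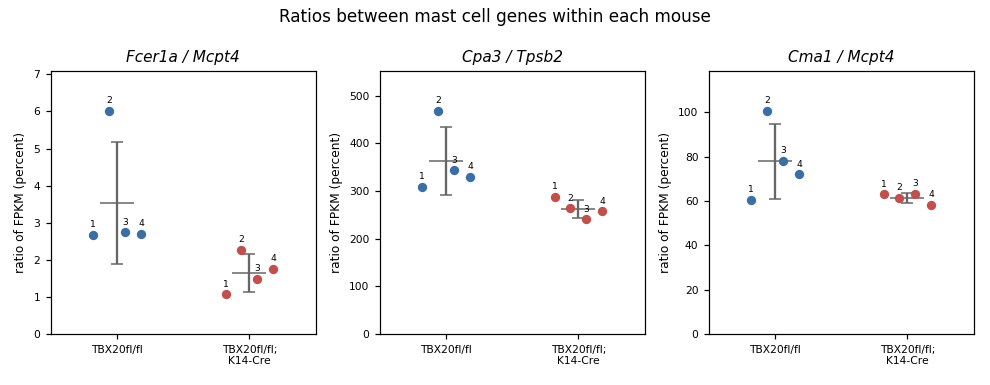
Ratio of FPKM between 2 mast cell genes within each mouse, in percent, for Fcer1a over Mcpt4, Cpa3 over Tpsb2 and Cma1 over Mcpt4, with points for mice, a dash for the mean and bars of 1 SD. The genotypes are separate in the first 2 panels and overlap in the third panel, where TBX20fl/fl mouse 1 lies at 60.5%, among the TBX20fl/fl;K14-Cre mice.

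Across the 8 mice, the log2 CPM of each member was compared with the mean of the other members, as a description over mice that share libraries and depth differences. Fcer1a, Ms4a2, Cpa3, Cma1, Mcpt4, Tpsb2 and Mrgprb2 followed the others (Pearson's r 0.850 to 0.958), Hdc less closely (0.582), and Kit ran against them (-0.868). After removal of the length trend r was -0.20 for Mcpt4, -0.09 for Tpsb2, -0.32 for Kit and 0.37 for Mrgprb2, while it was 0.80 for Hdc, 0.79 for Cma1, 0.76 for Fcer1a, 0.66 for Cpa3 and 0.65 for Ms4a2. With the mean of each genotype also subtracted, which takes out the difference that the members were chosen by, r was 0.58 for Cma1, 0.48 for Fcer1a, 0.39 for Cpa3, 0.35 for Hdc, 0.23 for Ms4a2 and between -0.34 and 0 for the other 4 genes.

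Of a further 20 genes of mast cell granules, mediators and receptors, 15 had fold changes below 0, as had 8137 of the 17124 genes tested. Their median was -0.48, which was -0.24 without TBX20fl/fl mouse 2 and -0.26 after removal of the length trend. None passed the edgeR test at an adjusted p under 0.05 and 5 had an unadjusted p under 0.05, all lower, as had 1012 of all genes in that direction. Srgn, serglycin, the proteoglycan core on which granules store proteases and histamine, had FPKM of 85.7 to 159.8 in TBX20fl/fl;K14-Cre and 186.6 to 442.4 in TBX20fl/fl skin, without overlap, and a log2 fold change of -1.42 (SE 0.39), which was -0.86 without TBX20fl/fl mouse 2 and -0.88 after removal of the length trend. Srgn is also expressed by other blood-derived cells. Milr1, an inhibitory receptor of mast cells, had a log2 fold change of -0.95 (SE 0.28) and Mrgprb1, a relative of Mrgprb2, of -0.82 (SE 0.21), both without overlap. Without TBX20fl/fl mouse 2 these were -0.60 and -0.56, after removal of the length trend -0.58 and -1.13, and with both -0.49 and -0.62. Hpgds, the prostaglandin D synthase of haematopoietic cells, had -0.61 (SE 0.17) with ranges of 10.3 to 14.6 and 13.2 to 22.6 FPKM. The edgeR adjusted p was 0.498 for each of these 4 genes. The mucosal mast cell proteases Mcpt1, Mcpt2 and Mcpt9 were at 0 to 0.33 FPKM in every mouse, whereas the connective tissue proteases were at 49.4 FPKM or more, the pattern known for mast cells of the skin.

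Of 14 signalling genes below the IgE receptor, 7 had fold changes below 0 and 7 above, with a median of -0.02, and none passed the edgeR test (lowest adjusted p = 0.498). The split depended on TBX20fl/fl mouse 2 and on the length trend, since 11 of the 14 were below 0 without that mouse (median -0.14), after removal of the trend (-0.10) and with both (-0.22). After Fcer1g, the most abundant were Lyn and Fyn, the kinases that start the signal, and Lat2, an adaptor. Lyn had a log2 fold change of -0.37 (SE 0.17), Fyn of 0.11 (SE 0.15) and Lat2 of -0.65 (SE 0.19), and without TBX20fl/fl mouse 2 these were -0.39, 0.03 and -0.47. Lat2 was lower in every TBX20fl/fl;K14-Cre mouse (9.57 to 11.6 against 12.8 to 16.0 FPKM), and 1 other gene of the 14 was higher in every such mouse. Over all 17124 genes tested, 320 were lower and 888 higher in this way. Most of the 14 genes are used by other immune cells too.

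Among factors that feed or recruit mast cells, Kitl, which encodes stem cell factor, was at 15.3 to 17.7 FPKM in TBX20fl/fl;K14-Cre and 11.2 to 16.7 in TBX20fl/fl skin, with a log2 fold change of 0.05 (SE 0.13) that turned to -0.35 after removal of the length trend. Il33, an alarmin of the epidermis that acts on mast cells, was at 28.9 to 51.8 against 46.3 to 74.5 FPKM (-0.66, SE 0.23). Tgfb1, a growth factor that acts on mast cells among many other cells, had a log2 fold change of 0.11 (SE 0.21), or -0.05 without TBX20fl/fl mouse 2. Il3 was not analysed here, Il9 was below the count minimum, and Kitl, Il33 and Tgfb1 did not pass the edgeR test. On the side of histamine, Hnmt, which inactivates it, was at 10.7 to 11.8 against 10.2 to 19.4 FPKM (-0.59, SE 0.29), and its fold change was -0.23 without TBX20fl/fl mouse 2. The transporter Slc22a3 had a log2 fold change of 0.03 (SE 0.23, or -0.11 without that mouse), and the receptors Hrh1 and Hrh2 had 0.45 (SE 0.24) and -0.42 (SE 0.31). None of the 5 tested genes of this list of 7 passed, and Hrh3 and Aoc1 were below the count minimum.

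Basophils share Fcer1a, Ms4a2, Hdc and Cpa3 with mast cells. Their own protease Mcpt8 had at most 2 counts in a TBX20fl/fl;K14-Cre mouse and 1 to 8 in the controls, near the limit of detection, with a log2 fold change of -2.53 (SE 0.84). Prss34, another basophil protease, was at 0.22 to 1.19 and 0.37 to 0.70 FPKM, Il4 at 0 to 0.57 and 0.29 to 1.39, and Cd200r3, which mast cells also carry, at 2.41 to 3.91 and 3.16 to 5.58. The summed FPKM of these 4 markers was 3.06 to 4.75 in TBX20fl/fl;K14-Cre and 4.68 to 7.89 in TBX20fl/fl skin, 3 of the 4 had fold changes below 0 with a median of -1.03 (-0.61 without TBX20fl/fl mouse 2), and none passed the edgeR test (lowest adjusted p = 0.498). Their part in the Fcer1a, Ms4a2, Hdc and Cpa3 values was not tested. In other cell types, the summed FPKM overlapped between genotypes, at 390.2 to 596.8 against 396.3 to 597.9 for 6 macrophage markers and 3946 to 5757 against 3761 to 5668 for 8 fibroblast markers. The median fold changes were -0.08 for the macrophage and 0.40 for the fibroblast list (-0.11 and 0.29 without TBX20fl/fl mouse 2), and 0 of their 14 genes passed.

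**Figure D4:**
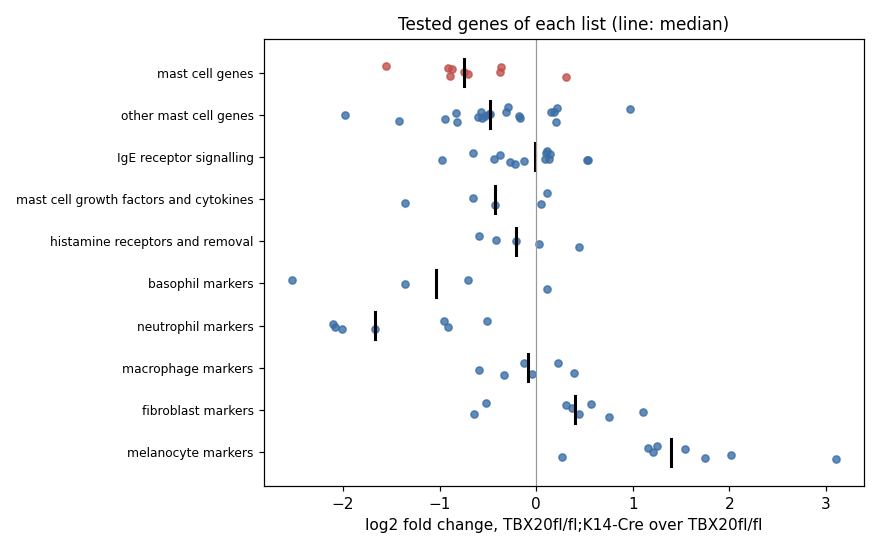
Fitted log2 fold change (horizontal axis, TBX20fl/fl;K14-Cre over TBX20fl/fl, all 8 mice) of every tested gene in the mast cell list and in 9 other lists. Each point is a gene and the black line is the median of the list. The mast cell genes lie at a median of -0.75, the other mast cell genes at -0.48, the IgE signalling genes at -0.02 (-0.14 without TBX20fl/fl mouse 2), the neutrophil markers at -1.67 and the melanocyte markers at 1.39 (0.05 without TBX20fl/fl;K14-Cre mouse 2), and no gene shown passed the edgeR test at an adjusted p under 0.05.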

How the data were processed

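RNA from whole cheek skin of 8 mice, 4 per genotype, was sequenced as single-end reads. Per the labels and the methods of the study, the authors selected polyadenylated RNA, filtered the reads with SOAPnuke and aligned them with HISAT. The counting program and genome build are not given in the sources used here. The authors deposited 1 table with estimated counts, of which 69.0% of those above 0 were not whole, and FPKM for each mouse. Counts were rounded. The deposited FPKM values were used as given.

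Groups came from the genotype labels. Mice of 1 group are separate animals. The genes and lists were chosen with earlier results of these data known. The named genes were all members, in each other list the 4 genes of highest mean FPKM and any gene past the threshold, the 10 genes most like the members, and Tbx20 and Npr1. One gene that this rule names is not reported here.

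edgeR 4.0.16 (R 4.3.3) quasi-likelihood tests with TMM scaling used the 17124 genes whose counts summed to 10 or more across all mice, with Benjamini-Hochberg adjustment over all of them and a threshold of 0.05. DESeq2 1.42.0 and limma 3.58.1 on log2(FPKM + 1) were alternatives, with other filters, another scaling, the replicate number as a block and each mouse left out. The length trend was the smoothed deviation of each mouse from the mean log2 CPM against transcript length implied by counts and FPKM, entered as an offset. Same-numbered mice of the 2 genotypes deviated together, with correlations of 0.405, 0.319, 0.331 and 0.160, against a mean of -0.0887 for other pairs. Genotype means were subtracted first, which ties the mean of the other pairs to that of the same-numbered pairs. The 2 are therefore no independent comparison. The labels do not state a pairing. The main fit did not use the replicate numbers, and the blocked fit, which did, is an alternative. The fits were also run on simulated counts that held no length trend and no deviating library, so that run does not test the length correction. Of 18901 gene identifiers, 18843 matched RefSeq. Counts cover counting error only, and 3 counts were taken as the floor.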

Additional observations from a re-analysis of the deposited data

Results flagged for a closer look

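In 20 groups of 4 values (9 genes and the scaling factor in each genotype), 1 mouse stood far from the other 3 in 2 groups, where chance gives about 1 in 20. Both concerned TBX20fl/fl mouse 2. Its FPKM of Fcer1a was 13.39, against 5.24 to 5.65 in the other TBX20fl/fl mice, and its TMM factor was 0.735, against 1.01 to 1.04. The fitted log2 fold change of Fcer1a was -1.56 with this mouse and -0.89 without it.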

How the results depend on the processing

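No gene was called by edgeR in any fit, with or without the replicate block, a length correction or a mouse (0 to 0 genes over the fits that left out 1 mouse), and DESeq2 called 10 genes, none a member. The blocked fit changed no call, with 1723 genes at an unadjusted p under 0.05 and a lowest adjusted p of 0.405. The median log2 fold change of the members was -0.75, and -0.65 with the replicate block. It ranged from -0.83 to -0.37 when 1 mouse was left out, the value nearest 0 being that without TBX20fl/fl mouse 2, and was -0.32 when this mouse and the length trend were both removed, a combination chosen after seeing the data. The median of the other mast cell genes was -0.48. It ranged from -0.50 to -0.24 when 1 mouse was left out, and was -0.26 after removal of the length trend, -0.23 after that removal with the block, -0.13 after that removal without TBX20fl/fl mouse 2 and with no block, and -0.12, -0.24 and -0.096 with limma on log2(FPKM + 1), on log2(FPKM + 0.1) and without a filter. The limma scales put the median of all genes at 0.12, 0.18 and 0.06. Of 171 values of single members under the alternatives, 158 moved by less than the spread between mice and 5 had another sign, all for Mcpt4 (0.08 and 0.09) and Tpsb2 (0.06, 0.05 and 0.0084) after removal of the length trend. The cause of these shifts was not tested. With 35.0 to 79.7 counts per TBX20fl/fl;K14-Cre mouse, Fcer1a was the member with the least depth.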

Other observations

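The genes whose log2 CPM over the 8 mice was most like the mean of the members were, among 14409 genes with a mean CPM of at least 1, 5430427O19Rik (Pearson's r = 0.994), Samsn1 (0.993), Srgn (0.991), Cd53, Skap2, Bik, Casp4, Lilrb4a, Clec5a and Ecscr (0.986). Srgn belongs to the mast cell granule, while Cd53, Samsn1, Skap2, Lilrb4a and Clec5a are known from blood-derived cells in general. With the mean of each genotype subtracted, the closest were Bik (0.996), Commd7, Mageh1, Glipr1, Plbd1, 5430427O19Rik, Casp4, 2700062C07Rik, Bcl10 and Ecscr (0.981), so 4 genes (5430427O19Rik, Bik, Casp4 and Ecscr) were among the 10 closest both ways. These correlations describe 8 mice that share the length trend, in which TBX20fl/fl mouse 2 lies at one end, and carry no test. After removal of that trend, a step added after seeing the data, the closest genes were F10 (0.958), Stfa2l1 (0.953) and Litaf (0.952). Bik was again among the 10 closest, but not once the mean of each genotype was subtracted as well, where the closest were Cacna1d (0.978) and Gpd2 (0.959).

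The skin markers of highest level in each list gave these log2 fold changes of TBX20fl/fl;K14-Cre over TBX20fl/fl, with the value without TBX20fl/fl mouse 2 in parentheses, and none passed the edgeR test with all 8 mice (lowest adjusted p = 0.498). In keratinocytes they were Krt14 -0.30 (-0.22), Krt10 0.05 (0.07), Krt5 0.12 (0.04) and Lor 0.05 (0.12). Fibroblast genes had Dcn -0.64 (-0.24), Col3a1 0.44 (0.38), Col1a2 0.75 (0.70) and Lum -0.52 (-0.09), and muscle genes Acta1 0.03 (0.07), Mylpf -0.78 (-0.30), Tnnt3 -0.54 (-0.19) and Ckm -0.11 (0.03). For fat they were Fabp4 -0.41 (0.01), Adipoq -0.07 (0.23), Cidec -0.01 (0.04) and Retn -1.04 (-0.60), and for vessels Pecam1 0.03 (-0.07), Cdh5 0.39 (0.16), Tie1 0.15 (-0.04) and Kdr 0.50 (0.25). Among immune cells, neutrophil genes had S100a9 -2.09 (-1.59), S100a8 -2.10 (-1.67), Retnlg -0.92 (-0.32) and Csf3r -0.51 (-0.65), and macrophage genes C1qb -0.59 (-0.38), C1qa -0.33 (-0.20), Cd68 -0.12 (-0.11) and Mrc1 0.23 (0.11). Many of these values were nearer 0 or of the other sign without that mouse. The melanocyte genes, here with the value without TBX20fl/fl;K14-Cre mouse 2 in parentheses, had Dct 1.15 (-0.05), Tyrp1 1.25 (-0.08), Sox10 0.26 (0.37) and Mlana 1.21 (-0.28).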
